A study of Mus musculus with 14 samples.

Results

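Splicing removes introns from the primary transcript, and 3 protein families that take part in it were measured here in mouse liver: the SR proteins, the heterogeneous nuclear ribonucleoproteins (hnRNPs) and the subunits of splicing factor 3 (SF3). Members were all genes whose platform symbol starts with Srsf (SR), Hnrnp, Sf3a or Sf3b, taken from probe sets listed with a single symbol. This gave 38 genes of the 18193 named on the array, 10 SR, 19 hnRNP and 9 SF3, carried by 121 of 45101 probe sets. Each gene was represented by its probe set with the highest mean log2 signal, and 37 of the 38 passed the signal filter. Srsf12 did not, at a signal of 35.6 ± 24.4 in krill-fed mice and 29.9 ± 12.3 in control mice (SD, n = 7 each).

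The 7 krill-fed mice received a diet with an extract of krill powder, and the 7 control mice received the same type of diet without it. Both groups were male CBA/J mice, an inbred strain, housed singly on 84 kcal per week of a diet based on AIN93M, a purified maintenance formula. Feeding began at 2 months of age and lasted 3 months, so livers were taken at 5 months, and each mouse was measured on 1 Affymetrix array. Total protein and total lipid were equal in both diets, while amino acids and fatty acids were not, so no single nutrient was varied alone.

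SR proteins carry RNA recognition motifs and a domain rich in arginine and serine, bind exonic enhancers and help the spliceosome to recognise exons. The hnRNPs coat nascent transcripts, and many of them repress splice sites or act on RNA export and stability. SF3A and SF3B are parts of the U2 small nuclear ribonucleoprotein (snRNP), which recognises the branch point. In liver, SRSF3 is known from mouse knockouts to be needed for hepatocyte maturation.

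Sequence upstream of the members is shown for 3 genes whose arrays did not overlap between diets, because they moved in opposite directions. These are RefSeq windows of 300 bases on GRCm38.p6 that span the gene start, most of each lying before it, all on the plus strand. Of the 3 windows listed for Srsf4 the first is shown. Sf3b6 lies at chr12:4817358-4817657, Srsf4 at chr4:131873387-131873686 and Srsf5 at chr12:80945249-80945548. Capitals mark exact matches, on either strand, to the ETS motif CCGGAAG or the GC box GGGCGG, and touching matches run together.
Sf3b6: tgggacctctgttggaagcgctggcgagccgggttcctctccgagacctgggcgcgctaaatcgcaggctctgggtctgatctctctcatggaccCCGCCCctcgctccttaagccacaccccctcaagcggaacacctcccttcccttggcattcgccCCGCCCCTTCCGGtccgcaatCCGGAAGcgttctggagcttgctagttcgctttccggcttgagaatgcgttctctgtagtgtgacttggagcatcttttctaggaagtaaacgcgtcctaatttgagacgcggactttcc
Srsf4: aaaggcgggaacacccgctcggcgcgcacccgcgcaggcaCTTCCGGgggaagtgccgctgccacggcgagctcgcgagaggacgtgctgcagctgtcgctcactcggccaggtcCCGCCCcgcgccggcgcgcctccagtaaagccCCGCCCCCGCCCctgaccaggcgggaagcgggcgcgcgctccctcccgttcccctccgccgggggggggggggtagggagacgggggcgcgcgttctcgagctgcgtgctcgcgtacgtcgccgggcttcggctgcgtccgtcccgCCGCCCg
Srsf5: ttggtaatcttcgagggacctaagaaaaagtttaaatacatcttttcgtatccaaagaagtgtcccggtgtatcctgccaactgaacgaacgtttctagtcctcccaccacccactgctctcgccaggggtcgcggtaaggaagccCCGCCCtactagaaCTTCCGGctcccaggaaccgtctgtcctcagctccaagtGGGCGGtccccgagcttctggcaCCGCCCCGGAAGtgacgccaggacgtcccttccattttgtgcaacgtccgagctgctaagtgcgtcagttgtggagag
Sf3b6, which rose, and Srsf4 and Srsf5, which fell, each held both motifs in the windows shown. Among the other members without overlap between diets, Srsf11 and Sf3b3 held the ETS motif. Srsf9, Hnrnpm, Hnrnph1, Hnrnph3, Hnrnpul1 and Hnrnpl did not, and no window was listed for Sf3b5. RefSeq windows were found for 33 of the 37 tested members, 46 windows in all. Some genes had several windows, a few nearly identical, and each window was counted, so the shares are of windows and not of genes. The ETS motif was in 16 of the 46 member windows, or 34.8%, against 8.86% of all 32851 promoter windows of the same length. GC boxes were in 76.1% of member windows against 35.7% of all windows. The other motifs searched on both strands were CCAAT, in 23 of the 46 member windows against 37.4% of all, TATAAA, in 10.9% against 13.6%, and the cyclic AMP response element TGACGTCA, in 0.0% against 1.79%. Member windows had a median GC content of 64.2%, against 52.7% over all windows. A match is a match of letters and no evidence of binding. By diet response, the median GC content was 56.6% for the 2 windows of members that rose, 61.0% for the 28 of members that fell and 69.8% for the 16 of members that did not pass the test.

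More splicing factors had lower than higher signal in krill-fed livers. Of the 37 members, 20 fell, 3 rose and 14 did not pass limma's test at a Benjamini-Hochberg adjusted p of 0.05. With array quality as a covariate limma called 8 lower and 2 higher (spike-in level) or 0 in either direction (3'/5' index). The calls fall on a wide background: 62.2% of the members and 47.7% of all 11308 genes passed the same test, with 24.8% of all genes lower and 22.9% higher. Among the members 54.1% were lower and 8.11% higher. The median log2 change (krill minus control) was -0.55 over the members and 0.04 over all genes. A change of at least 2-fold was called in 13 members, or 35.1%, against 22.9% of all genes. The krill and control arrays did not overlap for 12 members, 10 lower and 2 higher. Over all genes, 7.61% had the 7 krill arrays wholly below control and 6.52% wholly above.

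**Figure D1:**
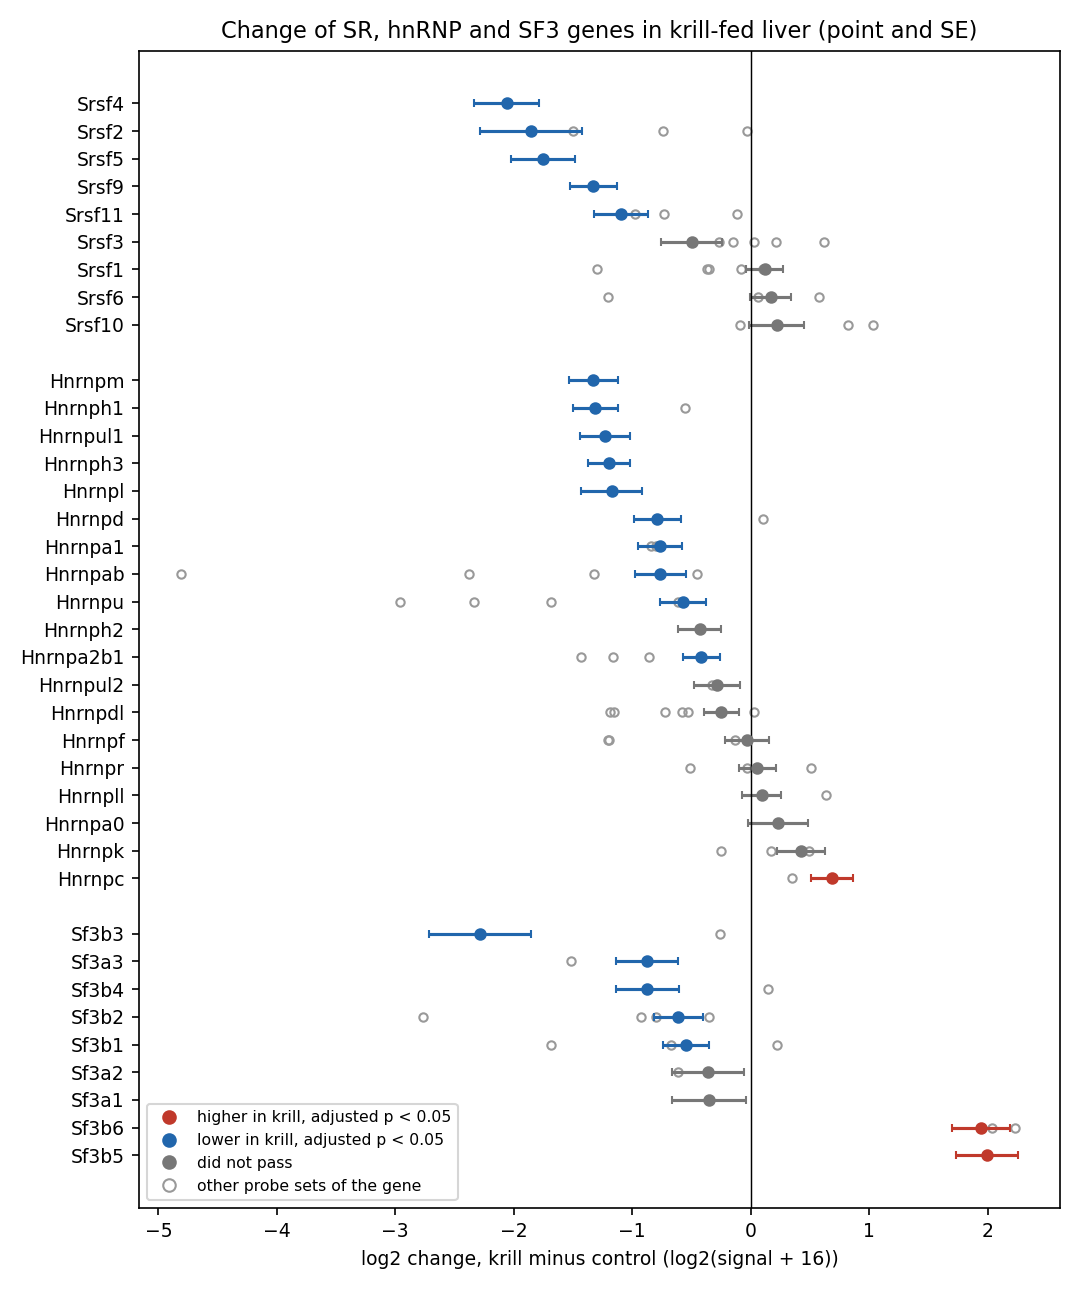
Log2 change (krill minus control) of the 37 tested members, ordered within the SR, hnRNP and SF3 families; filled points are limma estimates with the SE as bars, red higher, blue lower and grey not passed, and open points are other tested probe sets of the gene. Sf3b6 and Sf3b5 stand apart at 1.94 and 2.00, while 20 members passed the test as lower; the higher call of Hnrnpc turned to -0.10 under spike-in scaling.

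The array measures differed between diets as well. Hybridisation spike-ins, added in fixed amounts, had a mean log2 signal of 14.13 to 14.35 on krill replicates 2, 4, 5 and 7, above the 12.93 to 13.18 of the other 3 krill arrays and the 12.60 to 13.23 of the control arrays. The ratio of the 3' to the 5' actin probe set, which rises as RNA degrades, was 2.48 to 3.79 on krill arrays and 1.78 to 2.44 on control arrays, without overlap. The same ratio for pyruvate carboxylase was 11.6 to 25.7 on krill arrays and 4.49 to 10.7 on control arrays, also without overlap. The spike-in level as a covariate left 17.5% of all genes called. An index of the 3'/5' ratios, the mean log2 of these 2, separates the diets and left 0 of all genes called by limma. At an unadjusted p under 0.05 it gave 10 of the 37 members lower and 2 higher, and 1873 of all 11308 genes. Values without those 4 krill arrays are given below. Albumin, the hepatocyte marker, had its lowest signal at 45619, and Hnf4a, a transcription factor of hepatocytes, at 3466, while Ass1, a urea cycle enzyme, was dim at 137 to 998. The summed signal of 11 hepatocyte markers was 588000 to 1140000 in krill and 460000 to 684000 in control livers. Of these 11 markers 6 passed as higher and 1 as lower. Summed lymphocyte markers were 788 to 1810 in krill livers and 552 to 906 in control livers. Only 3 of these 7 lymphocyte markers passed the signal filter, 1 of them higher and 2 not called. Kupffer cell markers summed to 8770 to 18500 in krill and 7840 to 11200 in control livers. Of the Kupffer markers 2 passed as higher and 3 as lower. Endothelial markers summed to 6120 to 16200 in krill and 9150 to 10600 in control livers (2 higher, 1 lower), and stellate cell markers to 12200 to 16900 in krill and 12800 to 17700 in control livers (1 higher, 2 lower). No marker was at 0. In whole liver, fewer cells of a type and less RNA per cell cannot be told apart.

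Of the 9 SR proteins tested, 5 fell, none rose and 4 did not pass, with a median log2 change of -1.09. Srsf4, the largest of the classical SR proteins, had the largest fall of the family. Its signal was 123 at the lowest, 236 at the median and 422 at the highest in krill livers, against 720, 1160 and 2027 in control livers. All krill mice stayed below the lowest control mouse. The mean was 280 ± 114 in krill and 1202 ± 455 in control (SD, n = 7 each), and the fit on log2(signal + 16) gave a 4.17-fold lower level (log2 change -2.06, SE 0.27, limma adjusted p = 3.24e-05).

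Srsf5, an SR protein known for insulin-responsive exon choice, had signals of 1139, 1463 and 4261 (lowest, median and highest) in krill livers, against 4668, 6315 and 8663 in control livers. The ranges were separate, with krill replicates 1 and 3 nearest to the control mice. It fell by 1.75 on the log2 scale (SE 0.27, limma adjusted p = 9.11e-05). Srsf9, which binds exonic and intronic elements, had 225, 385 and 609 in krill livers, against 761, 1031 and 1186 in control livers. No krill mouse reached the lowest control mouse for this gene, and it fell by 1.33 on the log2 scale (SE 0.20, limma adjusted p = 6.22e-05). Srsf11, an SR-family protein that contacts the U2AF splice-site factor, had 632, 1086 and 2016 in krill livers, against 2219, 2421 and 2943 in control livers. These groups were also separate (log2 change -1.09, SE 0.23, limma adjusted p = 0.000858).

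Srsf2, which binds exonic enhancers, was the most uneven of the SR genes among krill livers. Its signals were 237, 804 and 2921 there, against 2673, 3387 and 3890 in control livers. Krill replicate 1 lay inside the control range and the other 6 krill arrays below it. Its log2 change was -1.86 (SE 0.43, limma adjusted p = 0.00208), and -0.53 (limma adjusted p = 0.0367) when krill replicates 2, 4, 5 and 7 were left out. Those 4 arrays held the 4 lowest Srsf2 signals. Other tested Srsf2 probe sets changed less, at -1.50 and -0.74, both called lower, and at -0.03, not called. The mean of its probe sets gave -1.03 (limma adjusted p = 0.000615).

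The other 4 SR genes did not pass on their representative probe sets. Srsf1, the founding member, averaged 3525 ± 842 in krill and 3178 ± 248 in control livers (SD, n = 7 each), a log2 change of 0.12 with a 95% interval of -0.21 to 0.45. Srsf6 stood at 0.17 (interval -0.20 to 0.54) and Srsf10, a splicing repressor when dephosphorylated, by 0.22 (interval -0.27 to 0.71). Changes of more than 2-fold lie outside these 3 intervals, while some smaller ones lie within them. The intervals hold for the representative probe sets only. Another tested probe set of each gene was called beyond 2-fold, at -1.30 for Srsf1, -1.20 for Srsf6 and 1.03 for Srsf10. Srsf3 averaged 1474 ± 720 in krill and 1936 ± 451 in control livers, which did not pass (log2 change -0.50, SE 0.26, limma adjusted p = 0.12). Without krill replicate 1 it passed as lower, at -0.67 (limma adjusted p = 0.0206), whereas without krill replicates 2, 4, 5 and 7 it was 0.12.

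**Figure D2:**
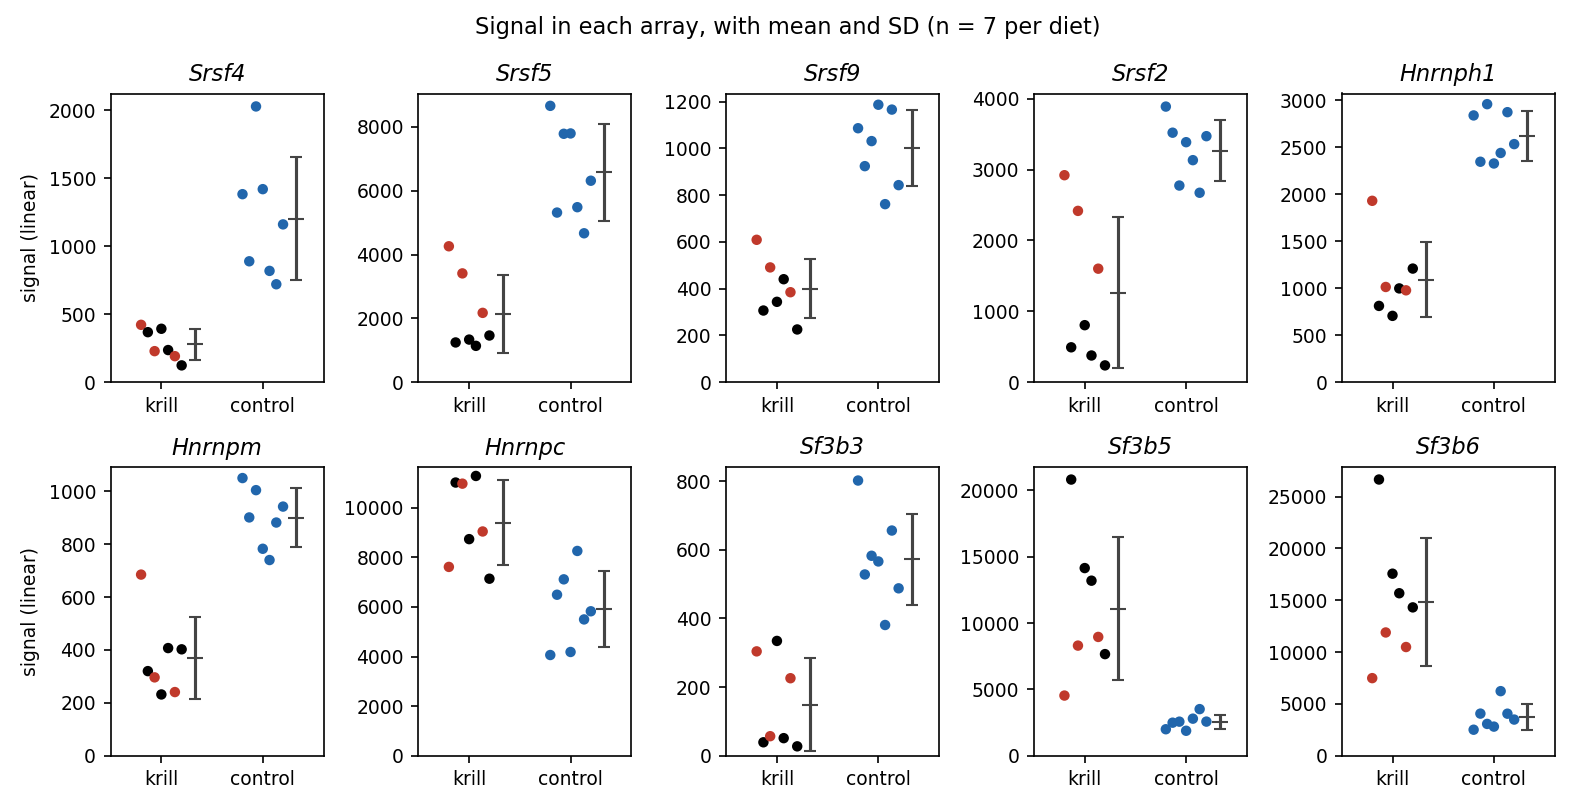
Signal (linear, from 0) of 10 members on each array, krill left and control right; black krill points are replicates 2, 4, 5 and 7, with spike-in signal above every control array, red krill points the other 3, blue points control, and bars show the mean with SD. Srsf4, Srsf5 and Srsf9 show separate groups, Srsf2 and Hnrnpc overlapping ones, and Sf3b5 and Sf3b6 lie higher on every krill array; Hnrnpc alone of the 10 changes sign (-0.10) under spike-in scaling.

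Among the 19 hnRNP genes 10 fell, 1 rose and 8 did not pass, with a median log2 change of -0.43. The 5 with the largest falls were Hnrnpm, Hnrnph1, Hnrnpul1, Hnrnph3 and Hnrnpl, and in each of them the krill arrays lay wholly below the control arrays. Hnrnph1, which binds runs of guanines near splice sites, had 706, 998 and 1930 (lowest, median and highest) in krill livers, against 2328, 2534 and 2959 in control livers (log2 change -1.31, SE 0.19, limma adjusted p = 4.90e-05). Its relative Hnrnph3 had 202, 257 and 399 in krill livers, against 490, 632 and 821 in control livers (log2 change -1.20, SE 0.18, limma adjusted p = 5.91e-05). Both were separate from control, while the related Hnrnph2 did not pass, at -0.43 (limma adjusted p = 0.0561). It passed without krill replicate 1 (-0.51, limma adjusted p = 0.0194) and without krill replicate 7 (-0.49, limma adjusted p = 0.0326).

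Hnrnpm, a regulator of alternative exons, had 232, 320 and 685 in krill livers, against 740, 901 and 1050 in control livers (log2 change -1.33, SE 0.21, limma adjusted p = 9.60e-05). Hnrnpul1, a relative of the scaffold protein HNRNPU, had 450, 651 and 1255 in krill livers, against 1345, 1522 and 2355 in control livers (log2 change -1.23, SE 0.21, limma adjusted p = 0.000208). Hnrnpl, which binds CA repeats, had 151, 347 and 497 in krill livers, against 516, 587 and 1134 in control livers (log2 change -1.17, SE 0.26, limma adjusted p = 0.00151). The highest krill mouse lay close under the lowest control mouse in all 3 genes.

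The other falls among the hnRNPs were smaller on the representative probe sets, and their groups overlapped. Hnrnpd, also called AUF1 and known for the decay of mRNAs with AU-rich elements, fell by 0.79 (SE 0.20, limma adjusted p = 0.00385), and the splicing repressor Hnrnpa1 by 0.77 (SE 0.19, limma adjusted p = 0.00295). Hnrnpab, related to Hnrnpd, fell by 0.76 (SE 0.21, limma adjusted p = 0.00747), and stood at -4.81 when its probe set was chosen by mean linear signal. Hnrnpu, which attaches chromatin to the nuclear scaffold, fell by 0.57 (SE 0.19, limma adjusted p = 0.0203), and Hnrnpa2b1 by 0.42 (SE 0.15, limma adjusted p = 0.0334). Hnrnpd did not pass with the mean of its probe sets (-0.34, limma adjusted p = 0.14). Hnrnpu lost its call without krill replicate 4 (-0.47, limma adjusted p = 0.0505). The call of Hnrnpa2b1 was lost without any 1 of 8 arrays, krill replicates 3, 4 or 5 or control replicates 1, 2, 3, 4 or 6, at -0.42 to -0.35 (limma adjusted p = 0.0522 to 0.0716).

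Hnrnpc, which binds uridine tracts in nascent transcripts, was the only hnRNP that rose on its representative probe set, and its change was -0.10 when arrays were scaled on the spike-ins. Its signals were 7139, 9044 and 11284 in krill livers, against 4060, 5825 and 8258 in control livers. Of the krill arrays 5 lay above all control arrays and the other 2 within their range. The log2 change was 0.69 (SE 0.18, limma adjusted p = 0.00488), and centring each array on its median gave 0.28 (limma adjusted p = 0.38).

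The remaining hnRNPs that did not pass ran from -0.28 for Hnrnpul2 and -0.25 for Hnrnpdl, through -0.03 for Hnrnpf, 0.06 for Hnrnpr, 0.09 for Hnrnpll and 0.23 for Hnrnpa0, to 0.43 for the poly-C binding Hnrnpk (limma adjusted p = 0.0869). Krill replicate 7 stood high in several of them. Its Hnrnpk signal was 29805, against 9743 to 16287 on the other krill arrays and 9112 to 11292 on control arrays. Its Hnrnpf signal was 11060, against 3867 to 6242 on the other krill arrays and 5472 to 5996 on control arrays. Without replicate 7 Hnrnpul2 passed as lower (-0.45, limma adjusted p = 0.022), and without krill replicate 3 Hnrnpk passed as higher (0.51, limma adjusted p = 0.0446).

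The SF3 genes did not move as one: 5 of 9 fell, 2 rose and 2 did not pass. The 2 that rose, Sf3b5 and Sf3b6, encode small subunits of SF3B, and SF3B6 lies next to the branch point adenosine. Small SF3B subunits did not all rise. Phf5a, another of them whose symbol falls outside the member rule, was lower (-0.61, limma adjusted p = 0.0251). Sf3b6 had 7484, 14312 and 26654 (lowest, median and highest) in krill livers, against 2505, 3485 and 6228 in control livers. All krill arrays were above all control arrays. Its mean was 14867 ± 6188 in krill and 3742 ± 1246 in control (SD, n = 7 each), and the fit on log2(signal + 16) gave a 3.85-fold higher level (log2 change 1.94, SE 0.25, limma adjusted p = 2.81e-05).

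Sf3b5 had 4531, 8951 and 20814 in krill livers, against 1877, 2564 and 3509 in control livers. The groups were again separate. Its mean was 11083 ± 5408 in krill and 2541 ± 539 in control livers, and the fit gave a 3.99-fold higher level (log2 change 2.00, SE 0.26, limma adjusted p = 3.10e-05). Both genes peaked on krill replicate 2 and had their lowest krill value on replicate 1.

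Sf3b3, a large SF3B subunit built of propeller domains, moved the other way. Its signals were 27.2, 56.7 and 334 in krill livers, against 381, 566 and 802 in control livers. The groups were separate, and 4 krill arrays lay at 27.2 to 56.7 while the other 3 lay at 226 to 334. Its mean was 148 ± 135 in krill and 572 ± 133 in control (SD, n = 7 each; log2 change -2.29, SE 0.43, limma adjusted p = 0.000404). Those 4 arrays lie below the signal filter of about 100.6, so the size depends on the added constant, at -2.53 with 1 and -1.81 with 64. A second tested probe set of Sf3b3 gave -0.26 (limma adjusted p = 0.45).

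The other SF3 falls overlapped with control. Sf3a3, a core subunit of SF3A, fell by 0.88 (SE 0.26, limma adjusted p = 0.0105), and Sf3b4, an RNA-binding subunit, by 0.87 (SE 0.27, limma adjusted p = 0.0124). Sf3b2, the partner of SF3B4, fell by 0.61 (SE 0.21, limma adjusted p = 0.0215) and Sf3b1, the scaffold of SF3B that is often mutated in myelodysplasia, by 0.55 (SE 0.19, limma adjusted p = 0.0255). Sf3b1 did not pass without krill replicate 2 (-0.43, limma adjusted p = 0.05), krill replicate 4 (-0.48, limma adjusted p = 0.0584) or control replicate 7 (-0.50, limma adjusted p = 0.0553), nor Sf3b2 without control replicate 1 (-0.52, limma adjusted p = 0.0531). Quantile normalization also ended the calls of Sf3b4 (-0.60, limma adjusted p = 0.066) and Sf3b2 (-0.42, limma adjusted p = 0.0849), and the mean of probe sets that of Sf3b4 (-0.36, limma adjusted p = 0.23), whose second probe set was at 0.15. Neither Sf3a2, at -0.36, nor Sf3a1, at -0.35, passed (limma adjusted p = 0.338 and 0.354).

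**Figure D3:**
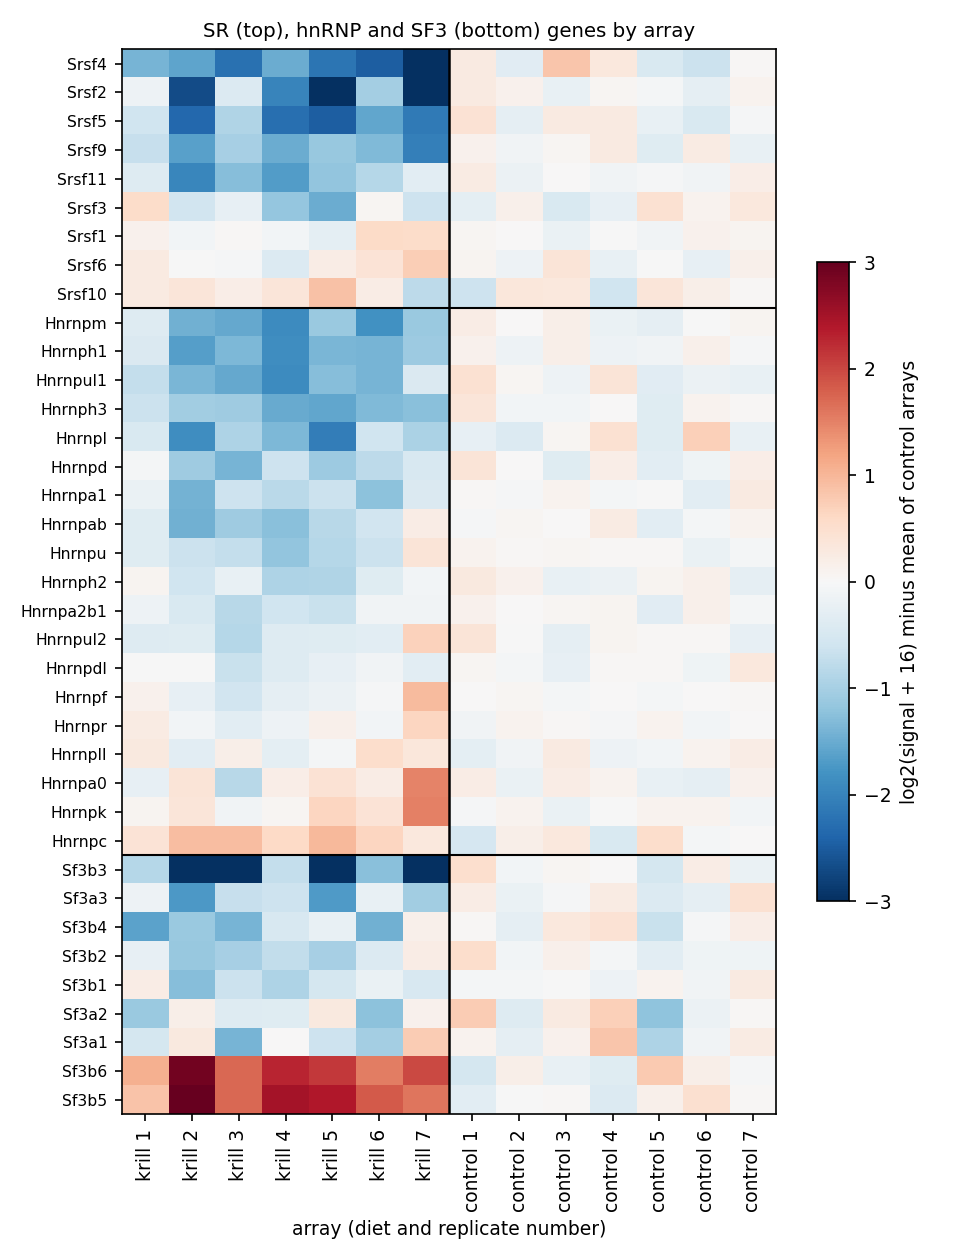
Each square is 1 member on 1 array, krill columns left and control columns right, coloured by log2 signal minus the mean of the control arrays, with colours ending at 3 in either direction. Krill replicates 2 to 6 have between 22 and 27 of the 37 members below the control range, replicate 1 has 14 and replicate 7 has 18.

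The shift was shared by most krill mice but not to the same extent. Krill replicates 2, 3, 4, 5 and 6 had 25, 26, 27, 24 and 22 of the 37 members below the lowest control array. In replicate 1 the count was 14, and in replicate 7 it was 18, with 11 members above the highest control array (41.1% of all genes were above it there). The median member stood at -0.19 in replicate 1, at -0.10 in replicate 7 and between -0.72 and -0.41 in the other 5, on the log2 scale relative to the control mean. The share of all genes below the control range was 26.1% to 36.9% over the 7 krill arrays, and that of members 37.8% to 73%. Signals also varied more among krill than among control arrays. Each mouse had 1 array, so variation between mice cannot be told apart from variation between arrays. The log2 SD was larger in krill than in control livers for 35 of 37 members, or 94.6%, and for 87.3% of all genes, and the median SD of the members was 0.49 in krill and 0.22 in control.

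Several members are carried by many probe sets, and these did not always give one value. The 121 probe sets held 106 that passed the filter, of which 49 were lower, 10 higher and 47 not called. Over all 19246 probe sets tested 45.4% were called, 26.3% lower and 19.1% higher. Of the 27 members with more than 1 tested probe set, every probe set passed in one direction for 5: Hnrnpa2b1, Hnrnpu and Sf3a3 lower, Sf3b5 and Sf3b6 higher. In another 16 some passed and the rest did not, and in 5 none passed (Hnrnpk, Hnrnpr, Hnrnpul2, Sf3a2 and Srsf3). Srsf6 was the 1 member called in both directions, 3.7% of the 27, against 4.45% of the 4759 such genes on the array. Where a probe set lies along its transcript was not analysed here, so isoforms and the ends of a transcript cannot be told apart.

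For Srsf6, an SR protein that also acts on its own transcript, 1 probe set had 493, 834 and 2012 (lowest, median and highest) in krill livers, against 1825, 2365 and 3039 in control livers. A second had 1223, 1718 and 2730 in krill livers, against 953, 1143 and 1325 in control livers. The first was lower (log2 change -1.20, limma adjusted p = 0.00112) and the second higher (0.58, limma adjusted p = 0.0145), and both overlapped with control. Srsf10 had 1 probe set on which every krill mouse, at 541 to 1119, lay above every control mouse, at 302 to 497 (log2 change 1.03, limma adjusted p = 0.000356). A further Srsf10 probe set was higher too (0.82, limma adjusted p = 0.00138), while the representative one did not pass. In Srsf1 a single probe set was lower (-1.30, limma adjusted p = 0.00143).

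Hnrnpab held the largest change of any member probe set. On that probe set the krill livers lay at 278 to 591 except for replicate 1, at 5078, and the control livers between 11678 and 24287. The log2 change was -4.81 (SE 0.46, limma adjusted p = 9.36e-06), against -0.76 for the representative probe set of the same gene. By linear mean signal it would itself be the representative, as another probe set of Hnrnpa2b1 would be (-0.86). With the mean of all its probe sets Hnrnpab was at -1.94, Hnrnpu at -1.63, Hnrnpa2b1 at -0.97 and Sf3b3 at -1.27. Of the 5 Hnrnpab probe sets tested 4 were lower, from -4.81 to -0.76, and the other was -0.45. Hnrnpu likewise ran from -2.96 to -0.57 over its 5 probe sets, all lower, and Sf3b2 from -2.76 to -0.35. Hnrnpf and Hnrnpdl, not called by their representative, had 2 of 4 and 4 of 7 probe sets lower. Hnrnpll, not called by its representative either, had 1 of 2 higher (0.64, limma adjusted p = 0.017). The second tested probe set of Hnrnpc did not pass (0.35, limma adjusted p = 0.0812). All tested probe sets of Sf3b5 and Sf3b6 rose by 1.94 to 2.23.

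**Figure D4:**
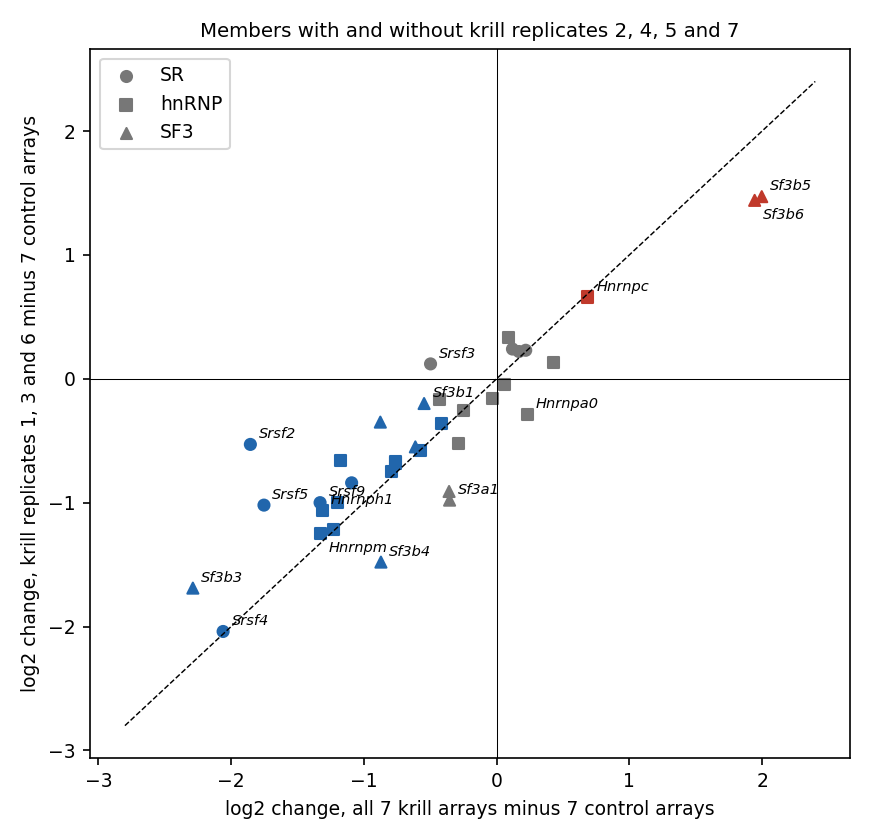
Log2 change (krill minus control) of each tested member with krill replicates 2, 4, 5 and 7 left out, on the vertical axis, against the change with all 14 arrays, on the horizontal axis; the dashed line marks equal values, and colours give the call on all arrays (red higher, blue lower, grey not passed). Srsf2 and Srsf5 lie nearer to 0 without those arrays, while Srsf4, Hnrnpm and Hnrnpul1 lie on or close to the line.

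Leaving out krill replicates 2, 4, 5 and 7, a choice made after the data had been seen, kept 3 krill and 7 control arrays. There 19 members were lower and 3 higher, while 32.3% of all genes were called. Of the 20 members lower on all arrays 17 were lower again, and all 3 that were higher were higher again. The 3 krill arrays kept still had a log2 3'/5' index of 2.44 to 3.00, above every control array (at most 2.28). This choice of arrays therefore does not remove that difference between the diets. Srsf4 stood at -2.04, Hnrnpm at -1.25 and Hnrnpul1 at -1.22, close to their values on all arrays. Smaller changes than on all arrays were seen for Srsf5 at -1.02, Sf3b3 at -1.69, Sf3b5 at 1.47 and Sf3b6 at 1.44, all past the threshold. The calls of Sf3a3 (-0.35), Sf3b1 (-0.20) and Hnrnpa2b1 (-0.36) were lost there, with limma adjusted p = 0.229, 0.392 and 0.111. Sf3b4 had a larger change, at -1.48 (limma adjusted p = 0.000745), and Sf3a1 at -0.98 and Hnrnpul2 at -0.52 passed as lower (limma adjusted p = 0.0222 and 0.0328).

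The rest of the splicing machinery moved in both directions. Of 134 other spliceosome genes listed, 122 were tested, and 47 were lower, 25 higher and 50 not called, with a median log2 change of -0.26. This is 38.5% lower and 20.5% higher, against the 24.8% and 22.9% of all genes given above.

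**Figure D5:**
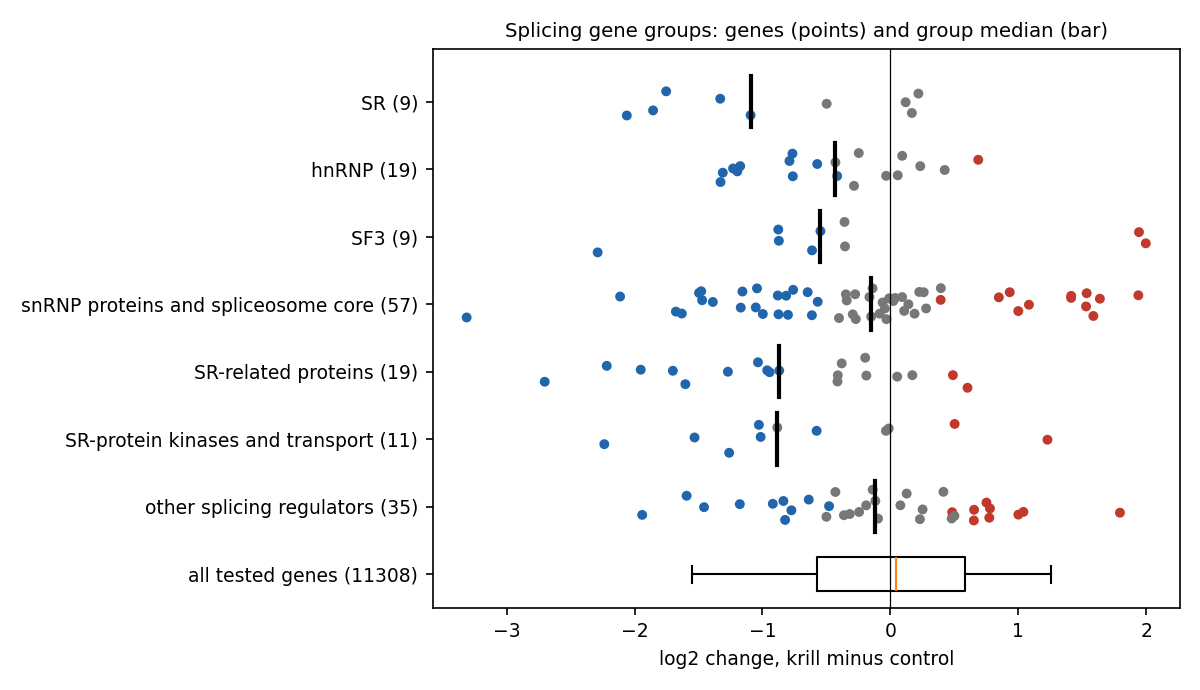
Log2 change (krill minus control) of the tested genes in the 3 member families and the 4 lists of other splicing genes, with the number tested in brackets; points are genes (red higher, blue lower, grey not passed), thick bars are medians, and the box for all genes shows quartiles with whiskers from the 5th to the 95th percentile. SR kinases and SR-related genes have medians of -0.88 and -0.87, near the SR family, and the share of higher calls over the 4 other lists, 34.7% here, was 16.9% with arrays centred on their medians and 8.33% with spike-in scaling.

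The kinases that phosphorylate SR proteins, with their transport factors, held 6 lower and 2 higher genes among 11 tested. This is 54.5% lower and 18.2% higher, against 24.8% and 22.9% of all genes. All 4 CLK kinases, which release SR proteins from nuclear speckles, were lower. Clk4 averaged 242 ± 225 in krill and 931 ± 79.7 in control livers (SD, n = 7 each; log2 change -2.24, limma adjusted p = 9.55e-05). Clk1, Clk2 and Clk3 changed by -1.53, -1.26 and -1.03. Ppp1cc, a catalytic subunit of protein phosphatase 1, was higher (1.23, and 0.44 with limma adjusted p = 0.118 under spike-in scaling). Prpf4b was higher on its representative probe set (0.50, limma adjusted p = 0.0416). That call was lost without any 1 of 10 arrays, and the change turned sign under spike-in scaling. With the mean of its probe sets Prpf4b passed as lower instead (-0.80, limma adjusted p = 0.00157).

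SR-related proteins, which carry arginine-serine domains without being classical SR proteins, had 10 lower and 2 higher of 19. Srrm2, a scaffold of nuclear speckles, averaged 626 ± 178 in krill and 2639 ± 1266 in control livers (log2 change -1.95, limma adjusted p = 4.04e-05). Son, the other speckle scaffold, changed by -2.22, Acin1 by -1.70 and Pnn, an exon junction protein, by -2.70, all without overlap between the diets. With the mean of probe sets Srrm2, Son, Acin1 and Pnn were at -1.21, -1.01, -1.49 and -1.52, all past the threshold. Ppig (0.49) and Bclaf1 (0.60) were higher, and both turned below 0 under spike-in scaling.

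Among snRNP proteins and core factors 21 were lower and 12 higher of 57. The share lower was 36.8%, against 24.8% of all genes, and the share higher, 21.1%, was near the 22.9% of all genes. Snrnp70, the U1 protein that SR proteins contact, averaged 287 ± 130 in krill and 800 ± 135 in control livers (log2 change -1.50), and the helicases Dhx16 and Ddx39b changed by -2.11 and -1.63. Of 6 Lsm genes tested, whose proteins form a ring that binds U6 RNA, Lsm3 (0.85), Lsm4 (1.41) and Lsm8 (1.53) were higher, Lsm2 (-1.48) was lower, and Lsm6 (-0.34) and Lsm7 (0.14) did not pass. Under spike-in scaling Lsm4 did not pass (0.63, limma adjusted p = 0.0671). Snrnp27 rose by 1.64 and Syf2 by 1.41, like Sf3b5 and Sf3b6 with every krill array above every control array.

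Other splicing regulators had 10 lower and 9 higher of 35. These shares, 28.6% lower and 25.7% higher, are near the 24.8% and 22.9% of all genes. Esrp2, which maintains the adult hepatocyte splicing programme, averaged 798 ± 407 in krill and 2032 ± 400 in control livers (log2 change -1.46, limma adjusted p = 0.000271). Khsrp, Rbm25 and Ewsr1 changed by -1.94, -1.59 and -1.18, and by -2.03, -0.79 and -1.76 with the mean of probe sets. Khsrp averaged 73.9 in krill livers, below the signal filter, and stood at -2.18 with an added constant of 1 and at -1.47 with 64. Higher genes were Mbnl1, at 17809 ± 6980 in krill and 8283 ± 1385 in control livers (1.04), Tial1 (1.00), Ptbp1 (1.79) and Syncrip (0.75), of which Syncrip stood at -0.02 under spike-in scaling. Mbnl1 (0.25, limma adjusted p = 0.395) and Tial1 (0.22, limma adjusted p = 0.49) did not pass under that scaling either. With the mean of probe sets Mbnl1 (0.52, limma adjusted p = 0.138) and Syncrip (0.13, limma adjusted p = 0.422) did not pass, and Ptbp1 was at 0.57. Ptbp1, a repressor that binds pyrimidine tracts, missed the threshold without krill replicates 2, 4, 5 and 7 (1.35, limma adjusted p = 0.0508).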

How the data were processed

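Liver RNA of 7 krill-fed and 7 control mice was extracted with Trizol and hybridised as biotin-labelled cRNA, per the labels' protocols. The deposited values are linear signal intensity per probe set, made by the authors with MAS5 per the submitters' processing notes. No MAS5 version was given in those notes. Every array has the same mean without its lowest and highest 2% of probe sets. Sample titles gave the diet and the replicate number. Scanner files and detection calls were not used here, and the number of arrays limits the precision.

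Signal was taken as log2(signal + 16), which understates changes of dim genes. The upper 50% of probe sets by mean log2 signal (22518, above a signal of about 100.6) were kept, and the one with the highest mean stood for each of 11308 genes. The krill and control arrays were compared over all genes in R 4.3.3 by limma 3.58.1 (lmFit, eBayes with trend, no covariate), with Benjamini-Hochberg adjustment and a threshold of 0.05. The procedure was tested on simulated data. Probe sets of one gene were also tested singly, adjusted over all probe sets. The platform table lists 34945 probe sets with 1 symbol, 932 with several and 9160 with none; members came from the first kind. Entrez numbers of the 37 tested members were all found in RefSeq's GRCm38.p6 table. Of the 37 representative probe sets, 10 have the suffix _s_at or _x_at, which marks probes that can match other transcripts. Splicing factor genes have close paralogs and processed pseudogenes, so their signals are less certain.

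The members and the lists of other splicing genes and of cell type markers were chosen with earlier results of these data known. Named genes were all tested members and the 4 genes with the smallest p per list and direction. Ranges and full statistics were given for up to 8 called members per family and direction. Lsm3, Lsm6, Lsm7 and Phf5a were added after their values were seen. The alternatives were pseudocounts of 1 and 64, quantile normalization, centring, spike-in scaling, no filter or the upper 30%, array weights, no trend, averaged probe sets per gene, a replicate block, 2 covariates, each array left out, 4 krill arrays left out and, added after seeing the data, the probe set with the highest linear mean. Arrays with the same number were correlated at -0.023 to 0.098 in their deviations from the group means. Such values show no pairing by number, but cannot exclude a pairing with little effect on signal. Figures were drawn with matplotlib 3.10.9 in Python 3.11.15.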

Additional observations from a re-analysis of the deposited data

Results flagged for a closer look

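Among 74 sets of 7 log2 values (37 members in 2 diets), 3 held an array further from the nearest other than Dixon's 95% limit for 7 values allows as a share of the range, and chance passes this limit in about 1 of 20 sets. Hnrnpul2 stood at 1580 in krill replicate 7, the highest of its diet, with the nearest krill array at 781 (ratio 0.645). Srsf10 stood at 417 in krill replicate 7, the lowest of its diet, with the nearest at 830 (ratio 0.584). Hnrnpa2b1 stood at 3740 in control replicate 5, the lowest of its diet, with the nearest at 4540 (ratio 0.571).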

How the results depend on the processing

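The counts of 3 higher and 20 lower members stayed within 1.5 times of these under 27 of 29 alternatives, the exceptions being the 2 covariates. Centring gave 2 higher and 25 lower members, and moved the median of all genes to -0.36 and of the members to -0.95; spike-in scaling gave 2 and 28, with medians of -0.71 and -1.33. Relative to all genes the members' median was -0.59, -0.59 and -0.62 (as reported, centred and spike-in scaled). The share of higher genes among the other spliceosome genes called was 34.7%, 16.9% centred (12 higher, 59 lower) and 8.33% spike-in scaled (7 higher, 77 lower); for all genes it was 48.1%, 21.2% and 5.81%. With the spike-in level as a covariate 8 members were lower and 2 higher, 1978 genes were called, and the other spliceosome genes gave 8 higher and 21 lower. With the 3'/5' index as a covariate, which separates the diets, limma called 0 members, 0 other spliceosome genes and 0 genes in all (smallest adjusted p 0.103); at an unadjusted p under 0.05 it gave 10 members lower, 2 higher and 1873 genes. With the replicate block, which pairs arrays by number, 20 members were lower and 3 higher, and 5253 genes were called. Leaving out 1 array gave 3 to 4 members higher and 17 to 22 lower, 22 to 26 and 45 to 52 other spliceosome genes, and 4680 to 6147 genes.

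The sign turned for Hnrnpa0 (-0.17), Hnrnpll (-0.31), Hnrnpr (-0.35), Srsf1 (-0.28), Srsf10 (-0.18) and Srsf6 (-0.23) when centred; for Hnrnpa0 (-0.55), Hnrnpc (-0.10), Hnrnpk (-0.36), Hnrnpll (-0.68), Hnrnpr (-0.72), Srsf1 (-0.66), Srsf10 (-0.55), Srsf6 (-0.61), Syncrip (-0.02), Prpf4b (-0.27), Ppig (-0.28) and Bclaf1 (-0.18) when spike-in scaled. It turned for Srsf1 (-0.31), Srsf6 (-0.10), Prpf4b (-0.80) and Bclaf1 (-0.40) with the mean of probe sets, and for Hnrnpr (-0.02) with array weights. With the spike-in covariate it turned for Hnrnpa0 (-0.31), Hnrnpr (-0.07) and Srsf3 (0.10), and without krill replicates 2, 4, 5 and 7 for Hnrnpa0 (-0.29), Hnrnpr (-0.05) and Srsf3 (0.12). With the 3'/5' covariate it turned for Hnrnpa0 (-0.92), Hnrnpk (-0.32), Hnrnpr (-0.20), Srsf1 (-0.01), Srsf6 (-0.22), Prpf4b (-0.14) and Bclaf1 (-0.20). Without krill replicate 2, 3 or 4 Hnrnpf turned (0.00, 0.06, 0.01), and without krill replicate 7 Hnrnpr (-0.04). The causes were not tested. No detection calls were used, so a dim signal such as that of Srsf12 could not be told from background.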
